A study of Drosophila melanogaster with 2 samples.

Results

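The 93 genes described here carry a symbol of the cytoplasmic ribosomal proteins of Drosophila melanogaster. They were taken from the 13968 protein-coding genes that the Ensembl annotation of assembly BDGP6 places on the chromosome arms, by a symbol that begins with RpL, RpS or RpLP and a number or A, or that is sta. Proteins of the large subunit are named RpL and numbered 54 genes, and those of the small subunit are named RpS or sta and numbered 39. The rule goes by symbol alone, so it also takes in RpL7-like, RpL24-like and RpLP0-like, whose yeast relatives act in ribosome assembly. The study mapped the chromatin binding of the protein of CG8765 in whole embryos of the fly strain CG8765-GFP, 0 to 8 hours old, by chromatin immunoprecipitation and sequencing (ChIP-seq). The tagged protein, a fusion with eGFP, was precipitated with an antibody against GFP, and its chromatin was sheared by sonication to 200 to 800 bp. All samples are 2 biological replicates of this 1 group, so no condition can be compared with another, and a whole embryo mixes all its cell types. The control experiment that the labels name was not used here. Nothing in the labels says whether the replicates came from separate collections of flies.

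Ribosomal protein genes are transcribed together and strongly in growing cells, and the loss of 1 copy of many of them gives the Minute phenotype of slow development and thin bristles. In flies their transcription starts within a run of pyrimidines, the TCT initiator, in place of the common initiator. Factors known at their promoters include DREF, which binds the DNA replication-related element, the TATA-binding relative Trf2, M1BP and, in growth control, Myc. Several of the proteins are encoded by a widely used gene and a copy that is active mainly in the germ line.

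The start sites of both bound and unbound members are shown first, because the initiator is the best known feature of these promoters. Each line gives 10 bases before to 10 bases after the start site with the most annotated transcripts, 5′ to 3′ on the strand of the gene in dm6 coordinates, with the strings CTTTT and CTTTC in capitals. The first 5 members had a peak in the authors' conservative list and the last 3 did not.
RpL13, chr2L:9967320-9967340, plus strand: gttgcgatttcCTTTTtaatt
RpL28, chr3L:3222948-3222968, minus strand: ggctgccatatttCTTTCctt
RpL30, chr2L:19009227-19009247, minus strand: cgcctgttcttcctCTTTCtt
RpL34b, chr3R:9401216-9401236, minus strand: aacagggttgccacCTTTCtt
RpS5a, chrX:17148254-17148274, minus strand: tgccgtaacatgttCTTTTtc
RpL8, chr3L:2587446-2587466, plus strand: gtcttcctCTTTTCTTTTctt
RpS9, chr3L:9511521-9511541, minus strand: ctaccttcacccctCTTTCtt
RpL40, chr2L:4227689-4227709, plus strand: ggcggccacactctCTTTTcc

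One or both of these strings stood within 10 bases of the start site in 51 of 93 members (54.8%), against 5.42% of all protein-coding genes. They were present in 15 of the 31 members with a conservative peak (48.4%) and in 36 of the 62 members without one (58.1%). The strings were searched on the strand of the gene, and a match describes letters and not a site in use.

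The next set shows the sequence under the summits, the highest points of the peaks. Each line gives the longest stretch outside annotated exons within 60 bp of the summit, on the strand of the gene. Capitals mark the DNA replication-related element TATCGATA and the string CGATA bound by BEAF-32, a boundary and promoter protein, on either strand. RpL28, RpL10Ab, RpS10b and RpL37-1 hold the full element. RpS28b holds only the shorter string, which the full element contains. RpL32, RpS27 and RpL23A, among the 5 strongest members, hold neither in the stretch shown. RpL32 does hold CGATA farther out, within 100 bp of its summit, the window used for the counts below.
RpL28, chr3L:3222961-3223053, minus strand: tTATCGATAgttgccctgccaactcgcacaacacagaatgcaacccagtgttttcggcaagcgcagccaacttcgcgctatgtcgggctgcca
RpL10Ab, chr3L:11822747-11822850, plus strand: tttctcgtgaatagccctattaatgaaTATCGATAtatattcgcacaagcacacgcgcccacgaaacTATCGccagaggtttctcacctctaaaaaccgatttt
RpS10b, chrX:19597910-19598030, plus strand: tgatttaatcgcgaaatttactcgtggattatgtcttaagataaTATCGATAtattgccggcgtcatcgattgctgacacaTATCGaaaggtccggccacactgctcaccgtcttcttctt
RpL37-1, chrX:15139368-15139438, minus strand: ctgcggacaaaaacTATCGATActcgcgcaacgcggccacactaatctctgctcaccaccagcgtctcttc
RpS28b, chrX:9554514-9554622, plus strand: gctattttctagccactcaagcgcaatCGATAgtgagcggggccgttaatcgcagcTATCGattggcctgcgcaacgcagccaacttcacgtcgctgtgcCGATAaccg
RpL32, chr3R:30046257-30046377, minus strand: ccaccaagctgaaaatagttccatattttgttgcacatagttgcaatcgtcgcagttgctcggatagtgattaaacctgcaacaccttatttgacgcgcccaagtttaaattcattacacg
RpS27, chr3R:25247515-25247599, minus strand: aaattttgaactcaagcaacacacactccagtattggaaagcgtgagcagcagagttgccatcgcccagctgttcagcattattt
RpL23A, chr3L:1668698-1668818, minus strand: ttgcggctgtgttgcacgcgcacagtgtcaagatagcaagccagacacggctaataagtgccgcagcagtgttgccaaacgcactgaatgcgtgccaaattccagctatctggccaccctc

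A conservative summit lay within 500 bp of a start site in 31 of 93 members (33.3%), against 10.5% of all 13968 protein-coding genes. The conservative list is the stricter of the authors' lists for the series, thresholded by the irreproducible discovery rate (IDR), which measures how reproducibly a peak ranks between samples. The share was 19 of 54 in the large subunit (35.2%) and 12 of 39 in the small subunit (30.8%), and both lay above the share of all genes. In the less strict list of the series 34 members had a summit (36.6%), against 12.3% of all genes. In the replicates' own thresholded lists the counts were 25 (26.9%) in replicate 1, against 8.35% of all genes, and 22 (23.7%) in replicate 2, against 8.78%. The shares of the large and small subunit genes were 27.8% and 25.6% in replicate 1, and 25.9% and 20.5% in replicate 2. The order of the subunits was the other way round, at 27.8% and 30.8%, when a conservative peak counted only for the gene of the nearest start site, and at 77.8% and 87.2% in the ranked list of replicate 1. Genes are not replicates, and no test was made of these shares.

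All 31 members kept a summit when the window was narrowed to 200 bp. Among bound members far from their summit were RpL32 at 156 bp and RpL22 at 106 bp. The nearest member outside the window was RpS15, 614 bp from a conservative summit, and the next was RpS15Ab at 1739 bp. RpL34b, RpS20 and RpL23 had a second conservative summit within the window, so the 31 genes held 34 distinct peaks.

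**Figure D1:**
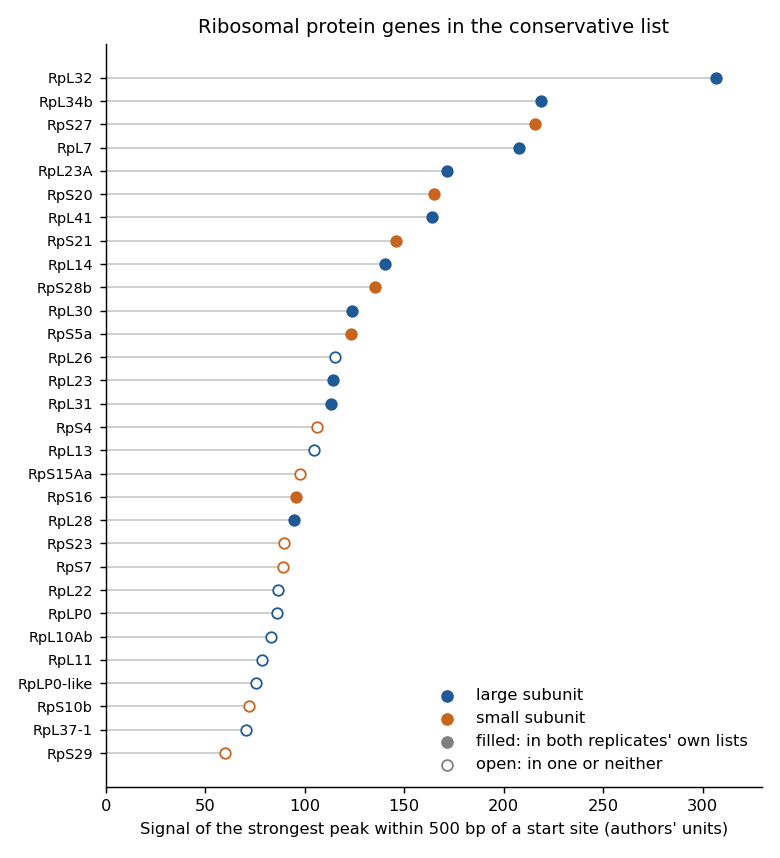
Signal of the strongest conservative peak, in the authors' units, for 30 of the 31 ribosomal protein genes that have one, with the large subunit in blue and the small subunit in orange; filled points have a summit in both replicates' own thresholded lists. Signals run between 59.9 at RpS29 and 307 at RpL32, and the 12 strongest members are all filled.

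The peak signals are the authors' own values and have no known depth behind them, so no interval can be given for them. Signals were compared only within a list or between lists of the series. In those lists a shared peak of a member has the same signal. RpL32, the gene of a large-subunit protein much used as a reference transcript, had the strongest peak of the group. Its signal was 307 in the conservative list, 138 in replicate 1 and 178 in replicate 2, and its summit lay upstream of the start at chr3R:30046317. RpL34b followed with 219 in the conservative list, 108 in replicate 1 and 112 in replicate 2. RpS27 had 216, with 91.3 in replicate 1 and 120.5 in replicate 2. RpL7 had 208, with 104 in replicate 1 and 112 in replicate 2. All 4 stood above the 99th percentile of each replicate's ranked list, which holds candidate peaks far below the thresholds.

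RpL23A, which sits near the exit of the nascent chain, had 172 in the conservative list, with 92.1 in replicate 1 and 75.3 in replicate 2. RpS20 had 165, with 70.3 in replicate 1 and 91.5 in replicate 2. RpL41, the smallest of the ribosomal proteins, had 164, with 94.4 in replicate 1 and 68.8 in replicate 2. RpS21 had 146, with 65.2 in replicate 1 and 79.0 in replicate 2. These 8 members were found in all thresholded lists, but their order differed between replicates. Replicate 1 placed RpL41 above RpS27, and replicate 2 placed RpL41 below RpS21.

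The other 23 members ran down to RpS29 without a gap, and most are given here. RpL14 had 140 and RpS28b 135, followed by RpL30 (124), RpS5a (123), RpL26 (115.2), RpL23 (114), RpL31 (113), RpS4 (106) and RpL13 (105). RpS15Aa had 97.5, RpS16 95.6, RpL28 94.4, RpS23 89.6, RpS7 89.2 and RpL22 86.9. RpLP0, which forms the base of the ribosomal stalk, had 85.9, and RpL10Ab had 82.9. RpL11, which joins the ribosome with 5S RNA, had 78.5, RpLP0-like 75.5, RpS10b 72.2, RpL37-1 70.6 and RpS29 59.9.

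The members' peaks lay near the middle of the promoter peaks in strength. The median signal was 101.1 over the 34 peaks of the members and 108 over the 1050 peaks at the start sites of other protein-coding genes. The highest was 307 among the members and 3244 among the others, and RpL32 took rank 152 of the 2132 peaks on the arms. The second peaks at RpL23 (32.4), RpS20 (11.2) and RpL34b (9.74) lay 205, 211 and 200 bp from the stronger ones and were the weakest of the 34.

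An overlap of at least 1 bp with the thresholded lists of replicate 1 and of replicate 2 was found for 20 of the 34 peaks (58.8%), against 50.2% of the 1050 other peaks. A further 7 overlapped a peak of replicate 1 alone, 5 a peak of replicate 2 alone, and 2 neither. The last 2 were at RpL37-1 and RpS29. The 20 include the weaker second peaks at RpL23, RpS20 and RpL34b, close to the stronger ones. With an overlap of at least 50% the count was 17 of 34, and with merged peaks it was 17 of 31. The other peaks were not counted in these ways. RpS29, a small-subunit protein, was also absent from the less strict list of the series, although its peak is in the conservative one. Its signal of 59.9 was the weakest of the 31 in the conservative list. RpS29 had 29.8 in replicate 1, where RpL11 (25.6) and RpS10b (27.1) were lower, and 35.4 in replicate 2.

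**Figure D2:**
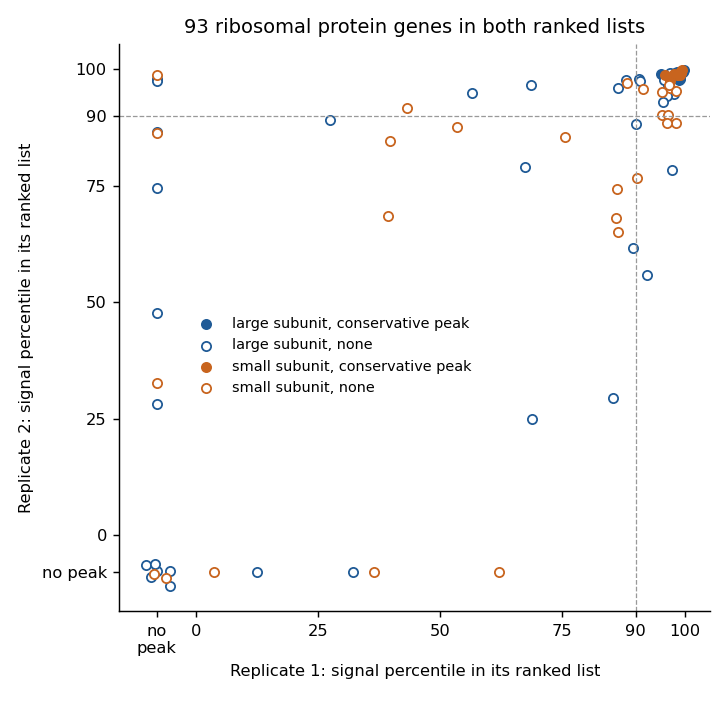
Each of the 93 ribosomal protein genes by the signal percentile of its strongest candidate peak in replicate 1 (horizontal) and replicate 2 (vertical), with members lacking a peak at the margin, spread slightly where they lack one in both; filled points have a conservative peak and dashed lines mark the 90th percentile. All 31 filled points lie above the 90th percentile in both replicates, and 16 open points lie there as well.

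Below the threshold, many more members had a candidate peak of high rank. The ranked list of replicate 1 had a summit within 500 bp of 76 members, against 71.8% of all protein-coding genes, and that of replicate 2 of 80 members, against 79.2%. A candidate peak alone was thus common at genes of any kind. A peak in the top 10% of each replicate's ranked list was found at 47 of 93 members (50.5%), against 16.4% of all genes. The peaks of the replicates need not share a summit, and at RpS6 and RpL7A they did not. These were 28 of 54 in the large subunit (51.9%) and 19 of 39 in the small subunit (48.7%). The 10% limit was chosen after the values were seen, and the ranked and thresholded lists come from the same libraries, so this is a further view of the same data.

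The median percentile of the members with a peak was 96.6 in replicate 1 and 97.0 in replicate 2. Over all protein-coding genes with a peak it was 76.9 in replicate 1 and 78.5 in replicate 2. Members without a conservative peak had medians of 89.4 (45 genes) in replicate 1 and 90.1 (49 genes) in replicate 2, which is still above those of all genes. Over the 71 members with a peak in both, the percentiles of replicates 1 and 2 had a Spearman correlation of 0.814. The points of a replicate share 1 library, and the value is a description of the lists.

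Outside the conservative list, 5 members had a summit in another thresholded list. RpL36 (64.9), RpL19 (59.6) and RpS19a (59.3) had one in the less strict list of the series. RpL36 has the divergent neighbour Mybbp1A. RpS27A, which makes a fusion of ubiquitin and a small-subunit protein, had 87.1 in the less strict list, and its candidate peak was present in replicate 2 (46.7, percentile 98.7) but not within 500 bp in replicate 1. RpS14b had 38.6 in the thresholded list of replicate 1 alone.

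Among the 5 strongest members with no thresholded summit were RpL13A, RpL8, RpS6 and RpL27A, taken by the lower of their percentiles in the replicates. RpL13A had a signal of 95.9 in the ranked list of the series, above that of 13 members in the conservative list. It had 30.2 in replicate 1 (percentile 97.1) and 58.5 in replicate 2 (percentile 99.1), and its summit in the ranked list of the series lay at -61 bp. RpL8 had 26.5 in replicate 1 and 36.5 in replicate 2. RpS6, the substrate of S6 kinase, had 25.9 in replicate 1 and 29.5 in replicate 2, from different summits at 18 and 451 bp. A summit of the less strict list lay 523 bp from RpS6, just outside the window. RpL27A had 34.5 in replicate 1 and 28.7 in replicate 2. In the conservative list, RpS29 had 29.8 in replicate 1 and 35.4 in replicate 2, RpL37-1 had 33.9 and 40.6, and RpS10b had 27.1 and 49.3, so the weakest listed and the strongest unlisted members overlapped in both replicates. The sta gene, whose product is the small-subunit protein RpSA, had 28.2 in replicate 1 (percentile 96.5) and 23.8 in replicate 2 (percentile 88.5).

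A summit in no list was found for 8 members, and they fell into near and far cases. RpS15, RpL39, RpL40 and RpL9 had a candidate summit just past the window, at 579, 634, 873 and 876 bp. RpL38, RpL15, RpL21 and RpS3A had none within 3.38, 6.42, 7.23 and 41.2 kb. RpS3A lies on chromosome 4, where only 8 of 80 protein-coding genes (10%) had a candidate peak in any list, against 89.5% of protein-coding genes on all arms. RpL15 lies 0.842 Mb and RpL21 1.27 Mb from the centromeric end of their arm sequences, and RpL38 lies 4.52 Mb from that of 2R. RpL5 and RpL30, both on 2L, lie at similar distances in Mb, but distances on different arms were not shown to be comparable. RpL5, 0.979 Mb from the end of 2L, had a candidate summit in replicate 2 alone (22.8, percentile 86.5). That summit lay at -500 bp, at the edge of the window. RpL30, 4.505 Mb from the same end, had a conservative peak of 124. Reads that cannot be placed in repeated sequence and a lack of binding cannot be told apart from peak lists.

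**Figure D3:**
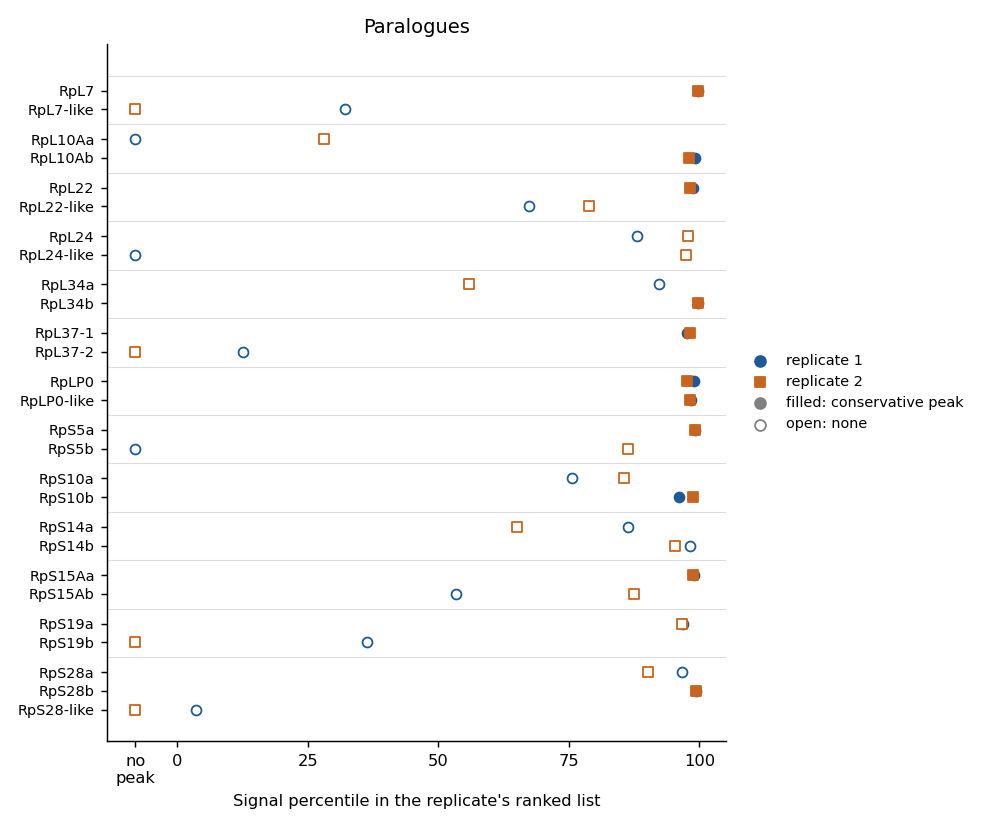
Signal percentile of the strongest candidate peak of each paralogue in replicate 1 (circles) and replicate 2 (squares), with genes lacking a peak at the left margin; filled symbols have a conservative peak. In 9 sets 1 gene is filled, and the percentiles come from the same libraries as the conservative list, so filled symbols lie at the right by selection.

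Genes whose symbols share a stem were compared with each other, in 13 sets with 27 genes in all. The sets of RpL7, RpL24 and RpLP0 pair a ribosomal protein with a relative of an assembly factor and not with a second copy. In 9 sets 1 gene had a conservative peak, in 1 set both had one, and in 3 sets none had. RpS5a, which is used widely, had percentiles of 99.1 in replicate 1 and 99.2 in replicate 2. RpS5b, active mainly in the ovary, had no candidate peak in replicate 1 and percentile 86.3 in replicate 2. RpL22 had 98.7 and 98.2 in replicates 1 and 2, and RpL22-like, best known from testis, had 67.4 and 78.9. RpL10Ab had 99.1 and 98.0, and RpL10Aa had no peak in replicate 1 and 28.1 in replicate 2. These percentiles come from the libraries that gave the conservative list, so a high rank of the listed copy restates its call.

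RpS10b had percentiles of 96.1 in replicate 1 and 98.8 in replicate 2, against 75.6 and 85.5 for RpS10a. RpS15Aa had 98.9 and 98.7, against 53.5 and 87.5 for RpS15Ab. RpL37-1 had 97.7 and 98.3, against 12.5 and no peak for RpL37-2. RpL34b had 99.7 in both replicates, against 92.3 and 55.9 for RpL34a. RpS28b had 99.3 in both, while RpS28a had 96.6 and 90.2, and RpS28-like had 3.65 and no peak. RpL7 had 99.7 in both, against 32.2 and no peak for RpL7-like.

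RpLP0 and RpLP0-like were the set with peaks at both genes. RpLP0 had percentiles of 98.9 in replicate 1 and 97.6 in replicate 2, and RpLP0-like had 98.4 and 98.2. The sets without a conservative peak were RpS14, RpS19 and RpL24. RpS14a and RpS14b are tandem copies on the X chromosome whose reads may be hard to tell apart. RpS14a had 86.3 in replicate 1 and 65.0 in replicate 2, and RpS14b had 98.2 and 95.2. RpS19a had 96.9 and 96.6, against 36.4 and no peak for RpS19b. RpL24 had 88.1 in replicate 1 and 97.8 in replicate 2, at -16 and -21 bp. RpL24-like had no peak in replicate 1 and 97.4 in replicate 2, at -395 bp, with CG5276 as divergent neighbour. Candidate peaks of other copies without a conservative peak also lay far from the start in some cases and near it in others. In replicates 1 and 2 they stood at 469 and 371 bp for RpL34a and at 380 and 458 bp for RpL22-like. For RpS19a they stood at -72 and -30 bp.

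**Figure D4:**
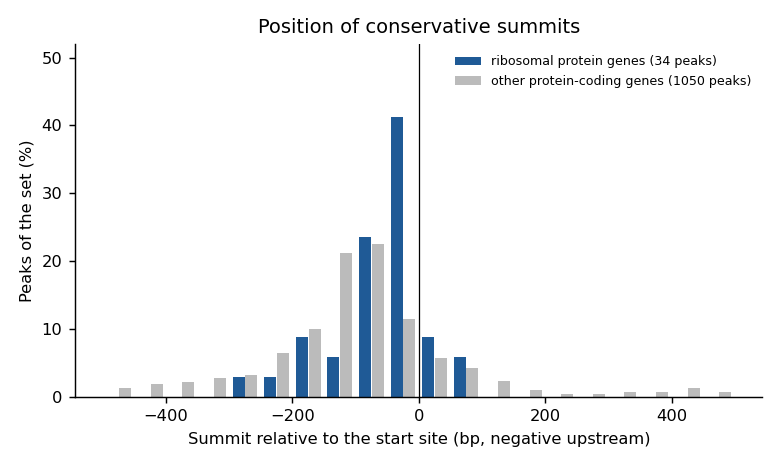
Share of conservative peaks by the position of the summit in bins of 50 bp, relative to the closest start site of the member for the 34 peaks of ribosomal protein genes (blue) and to the closest protein-coding start site for the 1050 peaks at other genes (grey). The blue peaks gather close to the start, with a median of -46.5 bp against -99.0 bp.

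Summits at the members lay close to the start and mostly upstream of it. The median summit stood at -46.5 bp from the member's closest start site, with quartiles at -83.8 and -14.5 bp. At other protein-coding genes the median was -99.0 bp, with quartiles at -163 and -37.3 bp. Summits within 100 bp of the start made up 27 of 34 at members (79.4%) and 44.0% at others. Summits upstream of the closest start site made up 29 of 34 at members (85.3%) and 82.8% at others. The groups thus differed in distance more than in side. Among the 29, the summits at RpLP0, RpS16, RpS29 and RpS23 lay inside their own gene, downstream of its first start site. In the annotation 23 member summits were intergenic, 9 lay in a 5′ UTR and 2 in introns. The 5′ UTR was the member's own except at the second summit of RpL34b, where it was that of CG8132. The intronic summits were at RpL26 within its own gene and at RpL41 within NaCP60E, a sodium channel gene.

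Many of the peaks lay where a neighbouring gene starts as well. The summits of 21 of 34 peaks (61.8%) were within 500 bp of the start site of another gene, against 46.7% of the 1050 other peaks. In 18 of them the neighbour was a protein-coding gene, and 16 different ones were involved. In 5 peaks the nearest start site of all was that of the neighbour. The neighbours of the 4 strongest members were CG7943 at RpL32, CG8132 at RpL34b, Nup37, a nuclear pore gene, at RpS27, and Ripalpha at RpL7. The summit at RpL32 stood at -156 bp from RpL32 and at -153 bp from CG7943, almost midway between them. RpL14 shared its peak with Nelf-E, which encodes a subunit of the negative elongation factor, at -57 bp from RpL14 and -70 bp from Nelf-E.

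RpL13 shared its peak with Dref, the gene of the factor that binds the DNA replication-related element. That summit stood at -83 bp from RpL13 and at -1 bp from Dref. The summit at RpL28 stood at -33 bp from it and at -348 bp from eIF1, a translation initiation gene. RpLP0-like (-12 bp) shared its peak with 14-3-3zeta (-75 bp), a gene of a signalling adaptor. Other coding neighbours were CG17271 at RpS20, NaCP60E at RpL41, CG3104 at RpS21, CG13531 at RpL23, CG12929 at RpL31, CG4294 at RpS16 and CG7130 at RpLP0. A lncRNA gene at RpL22 and snoRNA genes at RpL10Ab and RpS29 were the only neighbours there.

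Peaks were found at members with and without a divergent coding neighbour. Of the 37 members with one within 500 bp upstream, 15 had a peak (40.5%), and of the 56 without one, 16 did (28.6%). The 16 include RpL23, whose stronger summit also lay near CG13531, and RpL22, RpL10Ab and RpS29, which had non-coding neighbours. Among all protein-coding genes the shares were 23.0% of 3815 divergent genes and 5.80% of 10153 others. Single promoters with a peak included RpL23A (172), RpS28b (135), RpL30 (124) and RpS5a (123). A peak at a shared promoter cannot be assigned to either gene, and 27 members had a peak when each peak counted only for the gene of the nearest start site, against 7.22% of all genes.

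Members with a peak were spread over the large arms. They numbered 4 of 19 on 2L, 8 of 21 on 2R, 7 of 14 on 3L, 6 of 23 on 3R and 6 of 15 on X, and the only member on chromosome 4, RpS3A, had none. The share of all protein-coding genes with a peak was between 9.24% on X and 11.8% on 3R for these 5 arms, and 1.25% on chromosome 4.

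**Figure D5:**
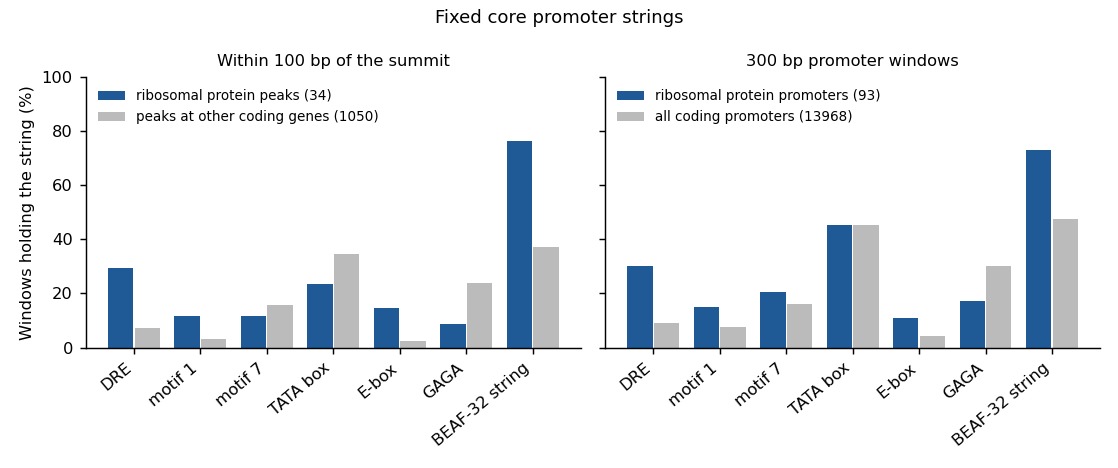
Share of windows that hold each fixed string on either strand: left, within 100 bp of the summits of ribosomal protein peaks (blue) and of peaks at other coding genes (grey); right, 300 bp promoters of ribosomal protein genes (blue) and of all coding genes (grey). The BEAF-32 string stood under 76.5% of the ribosomal protein summits and 37.3% of the others.

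The sequence under the member summits differed in composition and in known strings from that under other promoter peaks. The median share of G and C within 100 bp of the summit was 43.3% at members and 36.3% at the 1050 others. The string CGATA was present within 100 bp of 26 of 34 member summits (76.5%), against 37.3% of the others. The longer TATCGATA, which contains it and is bound by DREF, was present at 10 of 34 (29.4%), against 7.24%. Among these were RpL41, RpL26, RpS15Aa, RpL28, RpS7, RpL10Ab, RpS10b, RpL37-1 and RpS29, as in the sequences of RpL28, RpL10Ab, RpS10b and RpL37-1 above. Of the 10 genes RpL41 alone was among the 8 strongest members.

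Both strings were frequent in the promoters of members without a peak as well. In windows from 250 bp before to 50 bp after the start site, CGATA was found in 68 of 93 members (73.1%), against 47.4% of all protein-coding promoters. It was present in 26 of the 31 members with a peak and in 42 of the 62 without. TATCGATA was found in 28 of 93 members (30.1%), against 9.23% of all, with 11 of the 31 and 17 of the 62. Members with and without a peak both carried them, and the difference between these was not tested.

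The E-box CACGTG, which Myc can bind, stood near 5 of 34 member summits (14.7%), against 2.29% of the others. These were at RpL7, RpS28b, RpL11, RpLP0-like and RpL37-1. Motif 1, GGTCACAC, which M1BP binds, stood near 4 (11.8%), against 3.14%, at RpL7, RpL30, RpS23 and RpLP0. The TATA box string TATAAA stood at 8 of 34 (23.5%), against 34.6%, and GAGAG of the GAGA factor at 3 (8.82%), against 23.9%. CAGCNCT, the core of motif 7, stood at 4 (11.8%) against 15.7%. The summits at RpL23A, RpS21 and RpL14 and the stronger summit at RpS20 held none of these 7 strings. In the promoter windows CACGTG was found in 10 of 93 members (10.8%), against 4.20% of all protein-coding promoters, and GGTCACAC in 14 (15.1%), against 7.77%. TATAAA was found in 42 members (45.2%), against 45.5%, CAGCNCT in 19 (20.4%), against 16.2%, and GAGAG in 16 (17.2%), against 30.2%. All strings were searched on both strands, counts under 10 are small, and a match does not show a site in use.

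Genes that build and control ribosomes were read in the same way. Of 37 ribosome assembly genes that could be matched by symbol, 7 had a conservative peak (18.9%), against 10.5% of all protein-coding genes. Among them were eIF6 (698), which keeps the subunits apart, Ns2 (290), l(3)72Dn (145), Nopp140 (90.3), Dis3 (85.8) and Non3 (73.3). The signals of eIF6 and Ns2 were 698 and 290, and the highest among ribosomal protein genes was 307. Of 19 genes listed for rRNA synthesis and growth control, 4 had a peak (21.1%), against the same 10.5%. The list is small and also holds Dref, M1BP and Trf2, named above as factors at ribosomal protein promoters. Among its RNA polymerase I subunit genes only Polr1A had a peak. The 4 are therefore not a measure of rRNA synthesis genes alone. The 4 were Dref (105), whose peak is that of RpL13, M1BP (93.2), Polr1A (62.3), the largest subunit of RNA polymerase I, and Max (57.8), the partner of Myc. A peak in the top 10% of each replicate's ranked list was found at 32.4% of the assembly genes and 31.6% of the second list. It was found at 50.5% of the ribosomal protein genes and at 16.4% of all protein-coding genes.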

How the data were processed

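The values are those of the deposited interval lists on dm6, which are in a narrowPeak layout. Per the text deposited with the samples, those of a replicate derive from its own alignments (1 ranked, 1 passing an IDR threshold), and those of the series from the alignments of both (2 ranked, 1 thresholded, 1 conservative). The aligner and caller behind them were not given in the sources used here. Peak signal was used as the authors deposited it. The lists of the series gave a member's shared peak the same signal, such as 307 at RpL32. Each replicate's lists gave other values. The deposited score, a whole number, runs up to 1000 and was at least 830 in thresholded lists. Of the ranked lists of the series, 20 further columns were not used. Depth is unknown.

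Peaks on chromosome arms, including 4 and Y, were used, and every interval ended within its arm. Start sites came from Ensembl release 115 of BDGP6.54, without transposable elements, and sequences from the RefSeq copy of the same assembly. A gene had a peak where a summit lay within 500 bp of any of its start sites. Percentiles of signal are within a list. With 1 group no test was made. Position finding was tested on simulated summits. Members, lists, strings and paralogue sets were chosen with earlier results of these data known. The rule for named genes takes every member with a thresholded summit, all paralogues, the coding neighbours at conservative summits, the 5 highest members below the thresholds, members in no list, and pathway genes with a peak. RpS15Ab's distance and the value of sta were added after their values were seen. The values of some genes that this rule names are not reported here. Sequences on 2R are not shown, and no protein sequences were used. Computations used Python 3.11.15, NumPy 2.4.6 and pandas 2.3.3.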

Additional observations from a re-analysis of the deposited data

How the results depend on the processing

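Each replicate's own thresholded list in turn gave 22 to 25 members with a peak, 14 to 15 of the large and 8 to 10 of the small subunit. In the same lists the median signal percentile was 49.2 to 51.1, the median position -58 to -47 bp, and 14 to 17 peaks had another gene's start site in the window. Above the median signal of the conservative list, which removes peaks by construction, 17 members remained, with 11 of the large and 6 of the small subunit. There the median percentile was 36.4, the median position -57 bp, and 11 peaks had a neighbour. The median percentile, which was 47.4 in the conservative list, was 55.6 in the less strict list of the series, 49.2 with merged peaks, 50.2 with a window of 1000 bp and 51.3 with the nearest start site only. With the nearest start site only, the median position was -33 bp. The count of peaks with a neighbour was 12 with a window of 200 bp and 33 with one of 1000 bp. With the nearest start site only, the order of the subunits turned round, with 15 of 54 large (27.8%) and 12 of 39 small subunit genes (30.8%). The comparisons with peaks at other genes were not rerun under these settings. The 47 members among the top 10% of both ranked lists became 39 for the top 5% and 53 for the top 20%, against 12.0% and 23.4% of all genes, in settings chosen after seeing the data. No paired analysis was possible because the series has 1 group. Depth is not known, so a member without a peak is not shown to be unbound.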
